A study of Mus musculus with 9 samples.

Results

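Chemokines and their receptors were followed in the liver of hyperlipidemic mice with and without MIF-2, a cytokine that acts as an atypical chemokine. The members were the protein-coding mouse genes whose symbol begins with Ccl, Cxcl, Ccr or Cxcr and a number, together with Cx3cl1, Xcl1, Cx3cr1 and Xcr1. The receptors Cxcr2 and Cxcr4 were not analysed here. The rule used the symbol alone and gave 56 of the 27179 genes in the count table, 39 ligands and 17 receptors. A further 2 matching symbols, Cxcl11 and Ccl19-ps1, are not protein-coding in RefSeq GRCm38.p6 and were left out.

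RNA was sequenced from frozen liver sections of female Apoe-/- mice (5 libraries) and female Mif-2-/-Apoe-/- mice (4 libraries), all on a C57BL/6 background and kept on a high-fat diet (HFD) from 8 weeks of age for 12 weeks. Every animal lacked Apoe, so each had the high plasma lipids of that model, and no library came from an Apoe-sufficient or chow-fed liver. The deletion of Mif-2 (gene symbol Ddt) was in the whole body, not in a liver cell type. Lysates of 3 to 4 sections were pooled for each library. The labels do not say that each library came from its own mouse, so 2 of the 5 Apoe-/- libraries may share an animal, and n counts libraries throughout.

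Chemokines are small secreted or membrane-bound proteins that direct the movement of leukocytes along gradients. They are named by the spacing of their amino-terminal cysteines (CC, CXC, CX3C and XC), and most bind G protein-coupled receptors that are named after the ligand class. In liver, Kupffer cells, endothelial cells, stellate cells and hepatocytes make the ligands, while most of the receptors are on monocytes, granulocytes and lymphocytes.

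Library totals ranged from 2318148 to 10764182 counts. Counts of the deleted gene Ddt were 1205 to 4820 in Apoe-/- livers and 6 to 27 in Mif-2-/-Apoe-/- livers, so the genotype labels held in all 9. Hepatocyte markers were high in every library, with a summed level of 65765 CPM or more for 8 genes, where CPM is normalised counts per 1000000 counts. The 10 highest genes took 12.5% to 26.3% of the counts, and this share was lowest in Apoe-/- replicate 5 and in Mif-2-/-Apoe-/- replicates 1, 3 and 4. Across 16860 genes tested with edgeR, 22 were called at an adjusted p under 0.05, which is 0.130%. That count was between 9 (without Apoe-/- replicate 3) and 262 (without Mif-2-/-Apoe-/- replicate 2) when a library was left out.

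Of the 56 members, 41 had more than 3 counts in at least 1 library, 26 of the 39 ligands and 15 of the 17 receptors. Counts of 3 correspond to 0.402 to 1.70 CPM depending on the library, and a member at or under 3 counts in every library is called at the floor. The 15 members at the floor were the ligands Ccl11, Ccl12, Ccl17, Ccl20, Ccl21a, Ccl21b, Ccl21c, Ccl21d, Ccl26, Ccl27b, Cxcl3, Cxcl13 and Cxcl15 and the receptors Ccr3 and Ccr10. Ccl21a, Ccl21b, Ccl21c and Cxcl3 had no count in any of the 9 libraries. The other 11 had at most 14 counts over all libraries together. These genes were not detected here, which does not show that they are silent, and the floor covers counting error only. Of the 50-base stretches of Ccl21b, Ccl27b and Ccl21a, 100%, 98.1% and 71.6% also occur in other genes. The counting could have split or dropped such reads at any depth. Ccl21c and Ccl21d had no entry in the annotation used for this check.

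Detection in every library, unlike detection in any library, was confined to ligands. The 11 members above 3 counts in all 9 libraries were all ligands: Ccl2, Ccl5, Ccl6, Ccl9, Ccl24, Ccl27a, Cx3cl1, Cxcl1, Cxcl12, Cxcl14 and Cxcl16. No receptor was above 3 counts in more than 6 libraries. Summed over the ligands, the level was 341 to 538 CPM in the Apoe-/- libraries and 275 to 381 CPM in the Mif-2-/-Apoe-/- libraries. Summed over the receptors, it was 5.76 to 62.0 CPM and 14.8 to 57.4 CPM. The genotypes overlapped in both sums.

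**Figure D1:**
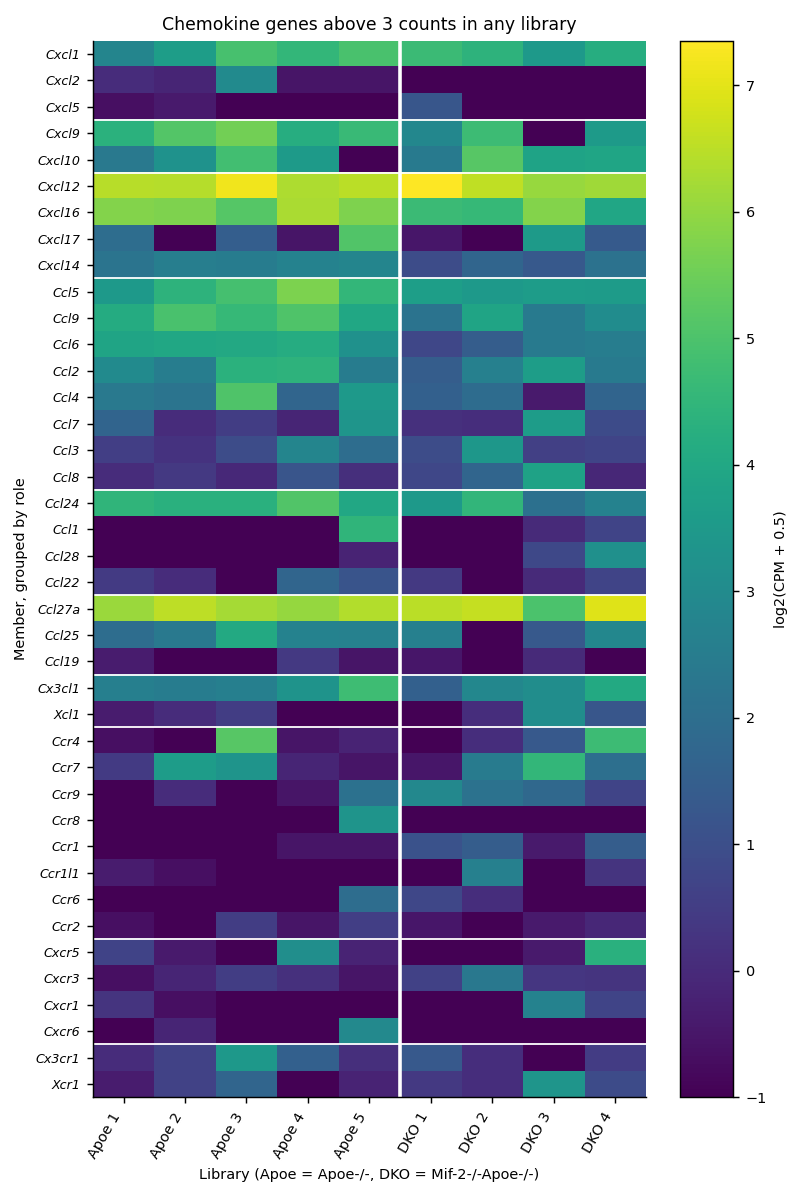
Heat map of log2(CPM + 0.5) for 40 members above 3 counts in any library (rows, grouped by role) in the 5 Apoe-/- and 4 Mif-2-/-Apoe-/- libraries (columns). Cxcl12, Ccl27a and Cxcl16 are bright in every library, while most receptor rows in the lower part are dark apart from 1 or 2 bright cells.

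Levels of different genes can be compared only per length, here as CPM per kilobase of annotated exon averaged over the 9 libraries. On that scale Ccl27a was highest at 33.8 CPM per kilobase, followed by Ccl5 (20.9), Cxcl16 (14.5), Ccl24 (13.1), Cxcl12 (11.9), Ccl4 (10.8) and Cxcl1 (10.4). Ccl27a, a ligand of skin-homing T cells, stands at the top with a reservation, since 45.0% of the 50-base stretches of its transcripts also occur in Gm20878 or Gm13306 and the counting could have split or shared those reads. The highest receptors were Ccr7 at 3.03 and Ccr4 at 2.35 CPM per kilobase, and those means rest on few libraries, as described for the receptors. By genotype the order changed, with Ccl4 at 16.8 CPM per kilobase in Apoe-/- mice and at 3.35 in those without Mif-2, Ccl5 at 28.0 and 12.0, Cxcl16 at 18.2 and 9.87, Ccl24 at 16.9 and 8.27, and Cxcl12 at 11.9 and 12.0. The order is a description of averages, and neighbours such as Ccl24 and Cxcl12 lie closer together than the spread of either between libraries.

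The genotypes were compared with edgeR at the 36 members that passed the filter on low counts, of which 33 were above the floor and Ccl12, Ccl27b and Cxcl15 were at it. No member was called, and the smallest adjusted p was 0.181, for Ccr1. Without adjustment 6 members had an edgeR p under 0.05. Of these 5 were lower in Mif-2-/-Apoe-/- livers (Cxcl2, Ccl6, Ccl9, Ccl4 and Ccl5), where 6.52% of all genes tested pass in that direction, and 1 was higher (Ccr1), where 8.99% pass. Cxcl2 and Ccr1 each passed the filter through 1 genotype alone, so their direction was favoured in advance. DESeq2, the tool of the study, called 2 of the 25 members to which it gave an adjusted p, Ccl6 (adjusted p = 0.0207) and Ccl9 (adjusted p = 0.0365). Over all genes DESeq2 called 2.35% lower and 2.58% higher. The 8 members above the floor that could not be tested were Ccl1, Ccl28, Cxcl5, Ccr1l1, Ccr6, Ccr8, Cxcr1 and Cxcr6.

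The estimate was lower in Mif-2-/-Apoe-/- livers for 19 of 26 ligands tested and higher for 7, with a median log2 fold change of -0.88. For the 10 receptors tested it was lower for 4 and higher for 6, with a median of 1.04, and ligands were not tested against receptors. Over the 36 members the median was -0.56, beside 0.17 over all genes tested, of which 43.5% had a lower estimate. The median of all genes was 0.17 with TMM scaling and -0.0015 with TMMwsp, the form of TMM for sparse counts, and the median of the members was -0.74 with the latter. It was -0.95 without Apoe-/- replicate 1 and -0.06 without Apoe-/- replicate 5. These are counts of estimates without a test, and members that pass the filter only through 1 genotype must lean towards it.

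**Figure D2:**
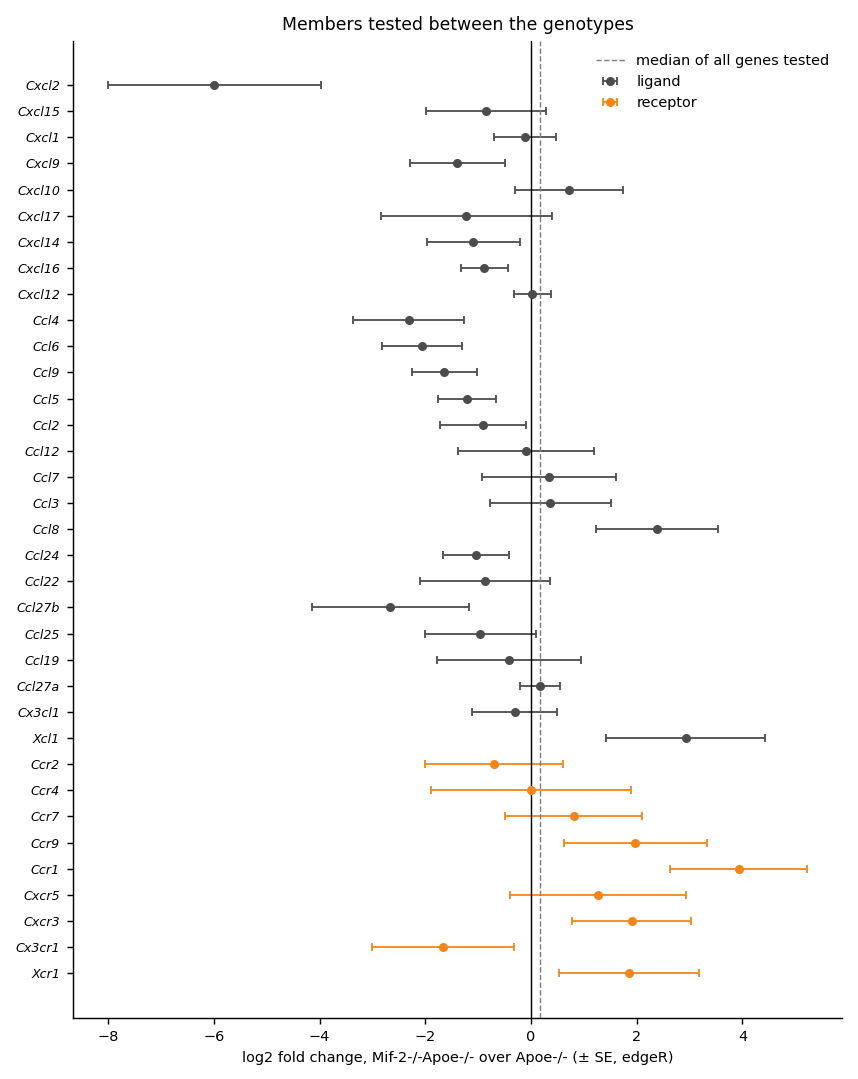
Log2 fold change of Mif-2-/-Apoe-/- over Apoe-/- livers with its standard error from edgeR (x axis) for 35 of the members tested (y axis, ordered by role), ligands in grey and receptors in orange. Most ligands lie left of 0 and of the dashed median of all genes (0.17), the receptors lie on both sides, and no member was called.

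Of the CC ligands that attract monocytes and T cells, 9 were tested, 6 with a lower and 3 with a higher estimate, and edgeR called none. They held 4 of the 6 members with an edgeR p under 0.05 before adjustment, all lower, where 6.52% of all genes tested pass. Among these 4, Ccl6 and Ccl9 had the smallest p. Both are CCR1 ligands made by macrophages and other myeloid cells. Counts per library are given in replicate order, 1 to 5 for Apoe-/- and 1 to 4 for Mif-2-/-Apoe-/- livers. Ccl6 (Entrez 20305) gave 104, 114, 34, 86 and 46 counts across the Apoe-/- livers and 6, 4, 19 and 23 across those of Mif-2-/-Apoe-/- mice. The lowest Apoe-/- library, replicate 5 at 8.91 CPM, lay above the highest Mif-2-/-Apoe-/- library, replicate 4 at 5.26 CPM. Its level averaged 14.4 ± 3.24 CPM in 5 Apoe-/- and 3.38 ± 1.95 CPM in 4 Mif-2-/-Apoe-/- livers (mean ± SD). The log2 fold change was -2.07 (standard error 0.75, edgeR adjusted p = 0.219), and it stayed between -2.36 and -1.78 with any 1 library left out. By exact permutation (two-sided, 126 arrangements of the libraries) p was 0.0159, the smallest that this test can give. Any member whose genotypes do not overlap gets this p, which is not adjusted, so it restates the separation and is no further support.

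Ccl9 (Entrez 20308) gave 124, 227, 50, 162 and 79 counts across the Apoe-/- livers and 20, 25, 19 and 34 across those of Mif-2-/-Apoe-/- mice. The genotypes came close but did not overlap, with 15.3 CPM in Apoe-/- replicate 5 and 14.2 CPM in Mif-2-/-Apoe-/- replicate 2. Means were 23.8 ± 7.76 and 7.71 ± 4.62 CPM (SD, n = 5 and 4). The log2 fold change was -1.64 (standard error 0.61, edgeR adjusted p = 0.226; two-sided exact permutation p = 0.0159), and between -2.19 and -1.42 without any 1 library. Among all members tested, 4 did not overlap in the lower direction (Cxcl2, Ccl6, Ccl9 and Cxcl14) and 1 in the higher direction (Ccr1), while 2.24% and 2.03% of all genes tested do so. Of these, Cxcl2 and Ccr1 each passed the filter through 1 genotype alone and had to lean towards it, so their separation adds no support. In bulk liver, fewer cells of a type and less RNA per cell cannot be told apart.

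Ccl6 and Ccl9 are neighbours on chromosome 11. In GENCODE M21 (GRCm38) Ccl9 spans chr11:83572919-83578636 and Ccl6 chr11:83587882-83593087, both on the minus strand and 9.2 kb apart. None of the 50-base stretches of the Ccl6 transcripts and 1.97% of those of Ccl9 occur in another gene. The 250 bases before the RefSeq start of each are shown 5′ to 3′ on the gene's strand (RefSeq, GRCm38.p6, chr11:83593088-83593337 for Ccl6 and chr11:83578637-83578886 for Ccl9), because DESeq2 called these neighbours and no other member. Capitals mark matches on either strand to TGANTCA (an AP-1 type motif), TATAAA (the core of the TATA box), GGGANNTTC (an NF-κB type motif) or TTCNNNGAA (a STAT type motif).
Ccl6: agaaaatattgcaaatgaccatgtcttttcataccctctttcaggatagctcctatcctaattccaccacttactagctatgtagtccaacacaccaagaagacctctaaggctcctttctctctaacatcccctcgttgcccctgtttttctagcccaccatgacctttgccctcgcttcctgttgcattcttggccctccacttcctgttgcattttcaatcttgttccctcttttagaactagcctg
Ccl9: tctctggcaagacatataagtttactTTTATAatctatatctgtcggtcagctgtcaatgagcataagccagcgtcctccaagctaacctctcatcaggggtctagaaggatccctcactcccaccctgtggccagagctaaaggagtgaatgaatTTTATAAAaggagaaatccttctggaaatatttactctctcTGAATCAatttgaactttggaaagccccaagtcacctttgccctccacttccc
The Ccl6 window held none of the 4 motifs. The Ccl9 window held TGANTCA beginning 53 bases before the start, and TATAAA beginning 224, 94 and 92 bases before it, of which the last 2 matches overlap. Over the 32851 promoter windows of the same length, TGANTCA occurs in 6.75% and TATAAA in 12.4%. A match or its absence in this window says nothing about binding.

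Markers of Kupffer cells, the resident macrophages of the liver, are set beside Ccl6 and Ccl9. All 9 were above the floor, and 7 of 9 had a lower estimate in Mif-2-/-Apoe-/- livers, with Clec4f (log2 fold change 0.03) and Vsig4 (0.17) on the other side. No marker was called by edgeR, and DESeq2 called 1, Cd5l. Without adjustment 2 had an edgeR p under 0.05 and were lower, where 6.52% of all genes tested pass in that direction. Their summed level was 1059 to 2715 CPM in the Apoe-/- libraries and 1280 to 1813 CPM in the Mif-2-/-Apoe-/- libraries. The lowest sum was that of Apoe-/- replicate 5. Per 1000 CPM of these markers, Ccl6 was at 5.63 to 8.41 CPM in Apoe-/- and at 0.813 to 3.74 CPM in Mif-2-/-Apoe-/- libraries. Ccl9 was at 7.25 to 14.4 CPM and 2.71 to 7.83 CPM on that scale, where Mif-2-/-Apoe-/- replicate 2 passed Apoe-/- replicate 1. Clec4f weighed most in the marker sum, with means of 835 CPM in Apoe-/- and 852 CPM in Mif-2-/-Apoe-/- livers. Lower markers such as Cd5l (470 and 205 CPM) and C1qa (368 and 170 CPM) weighed less, so the scale adjusts little for them. The summed level of 9 markers of monocytes and recruited macrophages was 455 to 793 CPM and 395 to 745 CPM, with 5 of 9 lower, none called by edgeR or DESeq2 and 1 with an edgeR p under 0.05 without adjustment. The part of these cells in the difference was not tested.

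**Figure D3:**
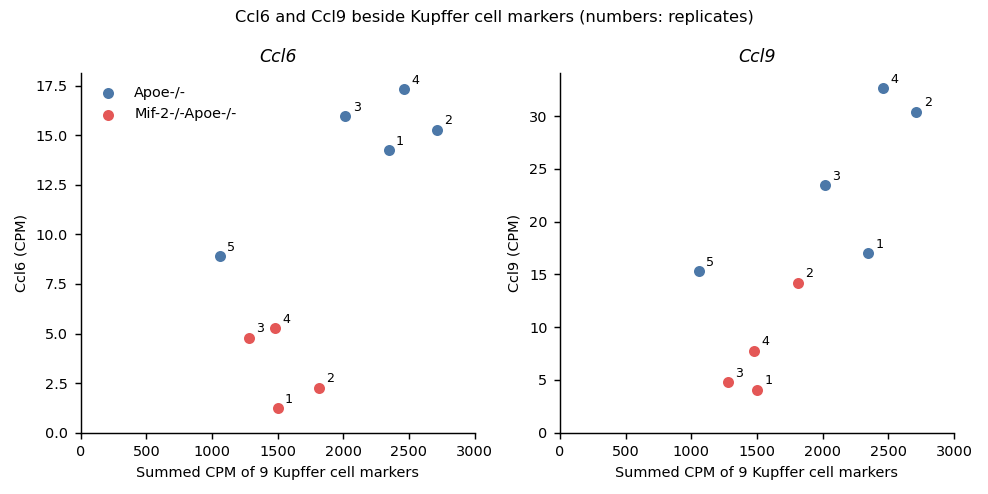
Ccl6 (left) and Ccl9 (right) in CPM (y axis) against the summed CPM of 9 Kupffer cell markers (x axis), 1 point per library numbered by replicate. Apoe-/- replicate 5 has the lowest marker sum (1059 CPM) and the lowest Apoe-/- level of both genes, above every Mif-2-/-Apoe-/- library.

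The other CC ligands of this role were less even. Ccl5 (RANTES), a ligand of CCR1 and CCR3 made by T cells, NK cells and macrophages, gave 80, 152, 62, 256 and 116 counts across the Apoe-/- livers and 60, 19, 47 and 50 across those of Mif-2-/-Apoe-/- mice. The Mif-2-/-Apoe-/- livers lay close together at 11.6 ± 0.605 CPM (SD, n = 4), whereas the Apoe-/- livers spread over 26.9 ± 15.3 CPM (SD, n = 5) and replicate 1 of that genotype fell among the Mif-2-/-Apoe-/- livers, whose range was 10.8 to 12.2 CPM. The log2 fold change was -1.21 (standard error 0.56, edgeR adjusted p = 0.311).

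Ccl4 (MIP-1β), a ligand that attracts monocytes and T cells, gave 34, 31, 70, 14 and 56 counts across the Apoe-/- livers and 12, 6, 1 and 12 across those of Mif-2-/-Apoe-/- mice. Apoe-/- replicate 3 alone held 51.2% of its summed CPM over the 9 libraries. Ccl4 averaged 11.1 ± 12.6 and 2.21 ± 1.37 CPM (SD, n = 5 and 4), with a log2 fold change of -2.32 (standard error 1.05, edgeR adjusted p = 0.308). Without that library the log2 fold change was -1.41. Ccl3 (MIP-1α), its neighbour, was at 2.59 ± 2.42 and 3.45 ± 4.52 CPM (SD, n = 5 and 4), with a log2 fold change of 0.37 (standard error 1.14, edgeR adjusted p = 0.913). The RefSeq span of Ccl4 crosses Ccl3, so the split of reads between them depends on the annotation used.

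The monocyte attractant Ccl2 (MCP-1), the main CCR2 ligand, gave 55, 40, 42, 103 and 27 counts across the Apoe-/- livers and 11, 10, 48 and 21 across those of Mif-2-/-Apoe-/- mice. The ranges of 5.23 to 20.8 CPM and 2.24 to 12.1 CPM overlapped. The log2 fold change of -0.91 was close in size to its standard error of 0.81 (edgeR adjusted p = 0.628). Ccl7 and Ccl8, which share receptors with Ccl2, were each highest in Mif-2-/-Apoe-/- replicate 3, at 11.8 and 13.6 CPM. Ccl7 averaged 2.86 ± 3.93 and 3.60 ± 5.51 CPM (SD, n = 5 and 4). Ccl8 averaged 0.844 ± 0.557 and 4.53 ± 6.13 CPM, and 60.9% of its summed CPM came from that library.

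The neutrophil-attracting CXC ligands split into 1 gene that was present in every library and others near the floor. Cxcl1 (KC), a ligand of CXCR2, gave 47, 90, 63, 113 and 158 counts across the Apoe-/- livers and 125, 36, 42 and 79 across those of Mif-2-/-Apoe-/- mice. The Mif-2-/-Apoe-/- range of 10.6 to 25.4 CPM lay inside the Apoe-/- range of 6.45 to 30.6 CPM. Means were 20.3 ± 10.7 and 18.6 ± 6.18 CPM (SD, n = 5 and 4), and the log2 fold change was -0.12 (standard error 0.58, edgeR adjusted p = 0.949), with a sign that turned in 2 of the fits that left out a library.

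Cxcl2 (MIP-2), the neighbour of Cxcl1, gave 4, 3, 16, 1 and 1 counts across the Apoe-/- livers and none in the 4 Mif-2-/-Apoe-/- livers. It therefore passed the filter through the Apoe-/- libraries alone, and replicate 3 held 84.8% of its summed CPM. The Apoe-/- mean of 1.77 CPM was 1.89 times the level that 3 counts per library would give in Mif-2-/-Apoe-/- livers (edgeR adjusted p = 0.204). This ratio rests on replicate 3, so it is not a smallest fold change. The other Apoe-/- libraries, at 0.194 to 0.549 CPM, were themselves at or near that floor, and 5.84% of the 50-base stretches of Cxcl2 also occur in Cxcl3. Cxcl5 was seen with 9 counts in Mif-2-/-Apoe-/- replicate 1 and with at most 2 elsewhere. Summed levels of 7 neutrophil markers were 21.8 to 56.2 CPM and 32.5 to 84.6 CPM, and the defining marker Ly6g was at 0 in all libraries.

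The starts of Cxcl1 and Cxcl2 lie on chromosome 5 at 90891245 and 90903899, both on the plus strand. Their upstream windows are shown because the genes differ so much in level while both windows hold the same run of capitals (RefSeq, GRCm38.p6, chr5:90890995-90891244 for Cxcl1 and chr5:90903649-90903898 for Cxcl2, 5′ to 3′, capitals as above).
Cxcl1: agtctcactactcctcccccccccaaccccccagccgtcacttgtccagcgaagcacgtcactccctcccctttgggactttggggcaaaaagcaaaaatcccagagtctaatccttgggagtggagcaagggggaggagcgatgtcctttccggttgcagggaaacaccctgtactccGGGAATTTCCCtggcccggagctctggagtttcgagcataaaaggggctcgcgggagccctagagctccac
Cxcl2: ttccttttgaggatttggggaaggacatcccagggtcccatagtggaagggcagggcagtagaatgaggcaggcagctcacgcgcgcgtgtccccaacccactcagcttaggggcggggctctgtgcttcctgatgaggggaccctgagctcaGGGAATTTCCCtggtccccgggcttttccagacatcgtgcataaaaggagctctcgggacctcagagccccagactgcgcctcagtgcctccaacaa
In both, GGGANNTTC matches on both strands at overlapping positions, starting 71 and 69 bases before the start of Cxcl1 and 97 and 95 bases before that of Cxcl2. The motif occurs in 3.23% of all promoter windows. Among the 41 members with a window it was found at 7, Ccl1, Ccr3, Cxcl1, Cxcl2, Cxcl3, Cxcl9 and Cxcl10. Ccr3 and Cxcl3 were at the floor, and Ccl1 and Cxcl2 drew most of their counts from 1 library, so members with the match did not have a common level.

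Cxcl9 and Cxcl10 are induced by interferons and attract T and NK cells through CXCR3. Cxcl9 (MIG) gave 143, 254, 100, 89 and 127 counts across the Apoe-/- livers and 33, 46, 0 and 49 across those of Mif-2-/-Apoe-/- mice. Every Apoe-/- library was at 17.9 CPM or more, and among the Mif-2-/-Apoe-/- libraries only replicate 2 (26.1 CPM) reached that range. The Apoe-/- mean was 28.6 ± 12.0 CPM (SD, n = 5), the other Mif-2-/-Apoe-/- libraries with a count were at 6.71 and 11.2 CPM, and the log2 fold change was -1.40 (standard error 0.90, edgeR adjusted p = 0.483), or -2.33 without Mif-2-/-Apoe-/- replicate 2. Its count of 0 in Mif-2-/-Apoe-/- replicate 3, a library of 3843793 counts, allows up to 0.756 CPM.

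Cxcl10 (IP-10) had a higher estimate that rested on single libraries. It gave 34, 68, 59, 56 and 0 counts across the Apoe-/- livers and 24, 63, 55 and 64 across those of Mif-2-/-Apoe-/- mice. Its levels of 10.6 ± 10.5 and 17.3 ± 13.1 CPM (SD, n = 5 and 4) gave a log2 fold change of 0.72 (standard error 1.02, edgeR adjusted p = 0.786), which was 0.0087 without Mif-2-/-Apoe-/- replicate 2. Leaving out Apoe-/- replicate 3 gave 1.34. Apoe-/- replicate 5 had no Cxcl10 count although its Cxcl9 was at 24.6 CPM, and Mif-2-/-Apoe-/- replicate 3 had 13.9 CPM of Cxcl10 with no Cxcl9. The neighbours lie 18.6 kb apart on chromosome 5. Their receptor Cxcr3 was at 1 to 3 counts in the Apoe-/- and at 3 to 8 counts in the Mif-2-/-Apoe-/- libraries (log2 fold change 1.91, standard error 1.13, edgeR adjusted p = 0.438). The windows of both are shown since they hold the NF-κB type motif of Cxcl1 and Cxcl2 once each (RefSeq, GRCm38.p6, chr5:92328080-92328329 for Cxcl9 and chr5:92348890-92349139 for Cxcl10, minus strand, 5′ to 3′).
Cxcl9: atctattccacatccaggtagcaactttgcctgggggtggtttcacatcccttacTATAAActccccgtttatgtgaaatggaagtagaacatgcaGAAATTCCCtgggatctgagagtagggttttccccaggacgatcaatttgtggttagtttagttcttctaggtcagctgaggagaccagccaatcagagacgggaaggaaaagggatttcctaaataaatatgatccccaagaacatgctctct
Cxcl10: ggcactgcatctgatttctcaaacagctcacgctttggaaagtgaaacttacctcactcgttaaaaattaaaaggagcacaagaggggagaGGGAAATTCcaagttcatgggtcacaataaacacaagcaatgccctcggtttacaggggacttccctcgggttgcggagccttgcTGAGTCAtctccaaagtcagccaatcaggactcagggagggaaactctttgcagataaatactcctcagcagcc
The capitals in the Cxcl9 window are TATAAA, 195 bases before the start, and GGGANNTTC, 154 bases before it. Those in the Cxcl10 window are GGGANNTTC, 159 bases before the start, and TGANTCA, 74 bases before it.

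Among the homeostatic and membrane-bound CXC ligands, Cxcl12 was abundant and even. Cxcl12 (SDF-1), made by endothelial and stromal cells, gave 642, 633, 303, 399 and 460 counts across the Apoe-/- livers and 800, 164, 263 and 308 across those of Mif-2-/-Apoe-/- mice. Means were 96.9 ± 25.6 and 98.1 ± 44.6 CPM (SD, n = 5 and 4). The log2 fold change was 0.02 (standard error 0.35, edgeR adjusted p = 0.988), and its sign turned to -0.16 with TMMwsp, so no direction is given. The highest libraries were Mif-2-/-Apoe-/- replicate 1 at 163 CPM and Apoe-/- replicate 3 at 142 CPM.

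Cxcl16, a membrane-bound ligand of CXCR6 that also acts as a scavenger receptor for oxidized lipoprotein, gave 405, 398, 74, 388 and 274 counts across the Apoe-/- livers and 125, 42, 219 and 65 across those of Mif-2-/-Apoe-/- mice. Mif-2-/-Apoe-/- replicate 3 (55.2 CPM) lay among the Apoe-/- libraries (34.7 to 78.2 CPM), and the other 3 were below them at 14.9 to 25.4 CPM. The log2 fold change was -0.88 (standard error 0.44, edgeR adjusted p = 0.355), from 55.0 ± 15.5 to 29.8 ± 17.5 CPM (SD, n = 5 and 4). The exons of Cxcl16 overlap those of Zmynd15 on the other strand over 552 bases, and whether the counting used strand is not given in the sources used here.

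Cxcl14, an epithelial ligand, did not overlap between the genotypes but was low, with 30, 41, 11, 30 and 33 counts across the Apoe-/- livers and 7, 5, 8 and 17 across those of Mif-2-/-Apoe-/- mice. Its levels of 5.44 ± 0.881 and 2.54 ± 1.07 CPM (SD, n = 5 and 4) gave a log2 fold change of -1.09 (standard error 0.88, edgeR adjusted p = 0.586; two-sided exact permutation p = 0.0159). The permutation p is not adjusted and follows from the lack of overlap. The range was 4.12 to 6.39 CPM in Apoe-/- and 1.42 to 3.89 CPM in Mif-2-/-Apoe-/- livers. Cxcl17, a mucosal ligand, gave 25, 0, 5, 1 and 174 counts across the Apoe-/- livers and 1, 0, 44 and 9 across those of Mif-2-/-Apoe-/- mice. Apoe-/- replicate 5 held 63.5% of its summed CPM, and the log2 fold change of -1.23 (standard error 1.62, edgeR adjusted p = 0.769) was 1.19 without that library.

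**Figure D4:**
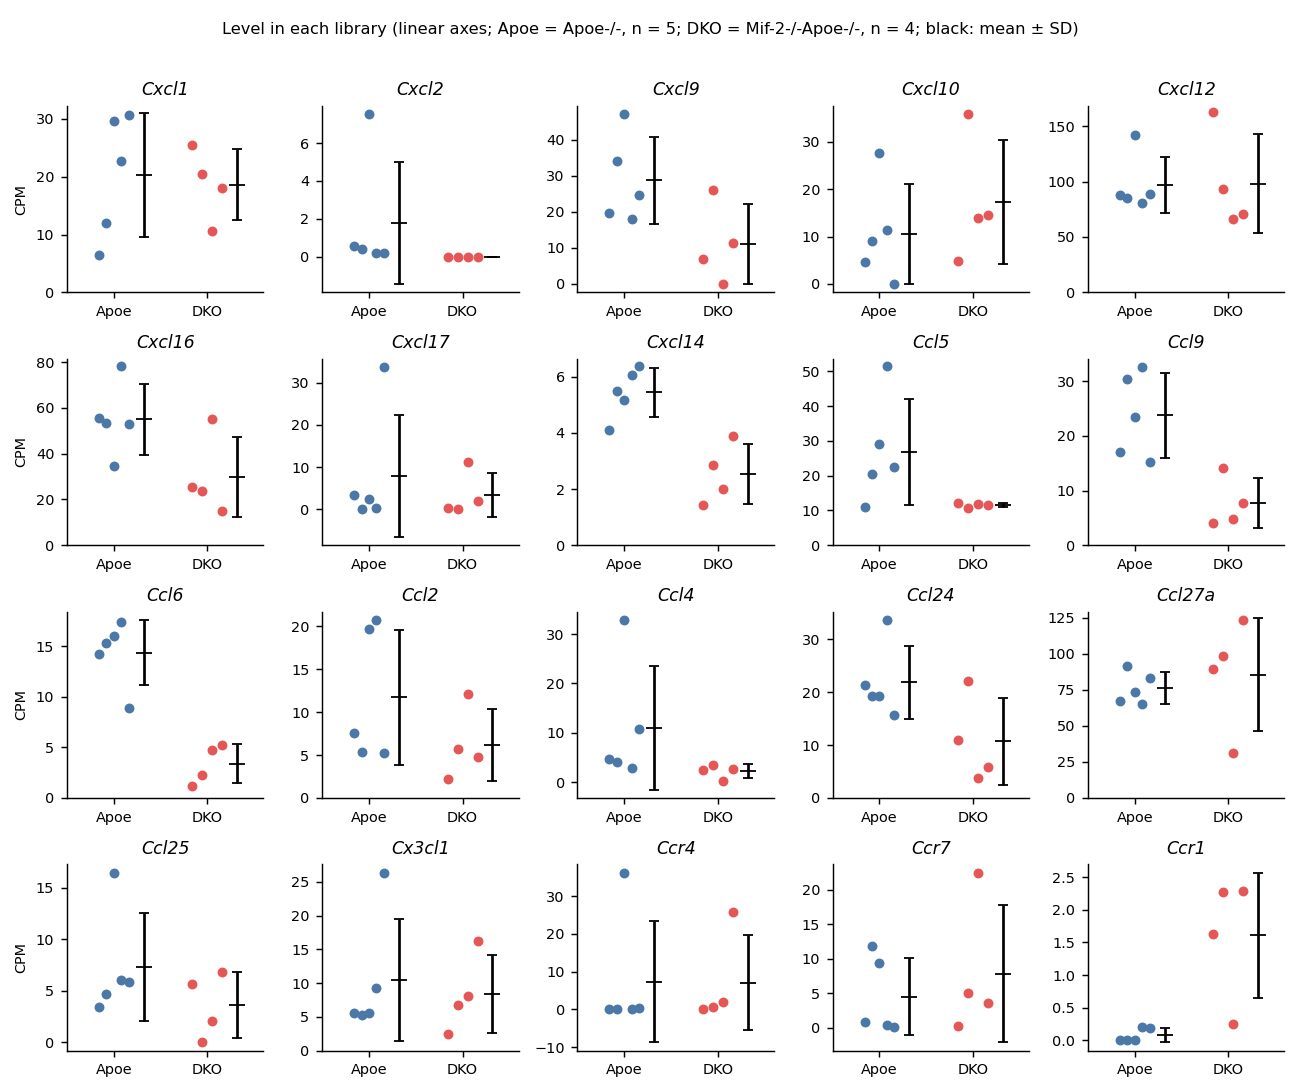
CPM (y axis, linear) in each library for the 20 members given per library, with Apoe-/- livers (Apoe, n = 5) in blue, Mif-2-/-Apoe-/- livers (DKO, n = 4) in red, and mean ± SD in black. The genotypes separate at Ccl6, Ccl9, Cxcl14, Cxcl2 and Ccr1, the last 2 at levels near the floor, while at Ccr4 and Cxcl17 1 or 2 libraries stand far above the rest.

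Of the ligands for eosinophils and Th2 cells, Ccl24 was the only member of its role above 3 counts in all 9 libraries. Ccl24 (eotaxin-2), a CCR3 ligand made by macrophages, gave 156, 144, 41, 167 and 81 counts across the Apoe-/- livers and 54, 39, 15 and 26 across those of Mif-2-/-Apoe-/- mice. The Apoe-/- range was 15.7 to 33.7 CPM, and Mif-2-/-Apoe-/- replicate 2 entered it at 22.1 CPM. Means of 21.9 ± 6.91 and 10.7 ± 8.20 CPM (SD, n = 5 and 4) gave a log2 fold change of -1.04 (standard error 0.63, edgeR adjusted p = 0.448), or -1.76 without that library. Its receptor Ccr3 was at the floor. Ccl22, a ligand of CCR4 made by dendritic cells and macrophages, averaged 1.18 ± 1.11 and 0.615 ± 0.486 CPM (SD, n = 5 and 4).

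The lymphoid and epithelial CC ligands showed no called difference. Ccl27a gave 490, 685, 157, 325 and 429 counts across the Apoe-/- livers and 441, 173, 123 and 539 across those of Mif-2-/-Apoe-/- mice. Means were 76.3 ± 11.1 and 85.5 ± 39.0 CPM (SD, n = 5 and 4), and the log2 fold change of 0.16 (standard error 0.37, edgeR adjusted p = 0.876) fell to -0.00015 with TMMwsp. Mif-2-/-Apoe-/- replicate 3 was lowest at 31.0 CPM and replicate 4 highest at 123 CPM. Ccl25, a CCR9 ligand best known from thymus and gut, gave 25, 35, 35, 30 and 30 counts across the Apoe-/- livers and 28, 0, 8 and 30 across those of Mif-2-/-Apoe-/- mice (log2 fold change -0.96, standard error 1.05, edgeR adjusted p = 0.711). Its exons overlap those of Elavl1 on the other strand over 204 bases. Ccl19, a CCR7 ligand, reached 4 counts at most, and 52.0% of its 50-base stretches occur in other genes.

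Cx3cl1 (fractalkine), a membrane-bound ligand of endothelial and epithelial cells, gave 41, 39, 12, 46 and 136 counts across the Apoe-/- livers and 12, 12, 32 and 71 across those of Mif-2-/-Apoe-/- mice. Apoe-/- replicate 5 stood out at 26.3 CPM beside 5.23 to 9.27 CPM in the other Apoe-/- libraries. The log2 fold change was -0.31 (standard error 0.81, edgeR adjusted p = 0.893) and 0.39 without that library. Its receptor Cx3cr1, found on monocytes and macrophages, was at 2.99 ± 4.17 and 0.879 ± 0.857 CPM (SD, n = 5 and 4). Xcl1 (lymphotactin) and its receptor Xcr1, which marks cross-presenting dendritic cells, were both highest in Mif-2-/-Apoe-/- replicate 3, at 8.06 and 9.83 CPM. That library also had the highest summed level of 6 dendritic cell markers, 96.8 CPM beside 11.8 to 38.9 CPM in the Apoe-/- libraries. Of these markers, Itgax and Cd209a had their most counts there, 174 and 79. Clec9a did not, with 25 counts there, 60 in Mif-2-/-Apoe-/- replicate 1 and 72 in Apoe-/- replicate 4. The same library had the highest sums of B cell (113 CPM), NK cell (35.8 CPM), platelet (278 CPM) and cholangiocyte (78.6 CPM) markers. The part of any of these cell types was not tested.

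The receptor with non-overlapping genotypes was Ccr1, which binds Ccl3, Ccl5, Ccl6 and Ccl9 and is found on monocytes and neutrophils. It gave 0, 0, 0, 1 and 1 counts across the Apoe-/- livers and 8, 4, 1 and 10 across those of Mif-2-/-Apoe-/- mice. The libraries with 1 count were nearly level, at 0.202 and 0.194 CPM in Apoe-/- and 0.252 CPM in Mif-2-/-Apoe-/- livers. Pooled over libraries, 23 against 2 counts gave a ratio of 20.7 with a 95% exact counting interval of 5.11 to 181, which leaves out the spread between animals. Every Apoe-/- library was under the floor, and the mean of the Mif-2-/-Apoe-/- libraries was 2.36 times the level that 3 counts per library would give in Apoe-/- livers. The edgeR test put the log2 fold change at 3.93 with a standard error of 1.30 (adjusted p = 0.181), and Ccr1 passed the filter through the Mif-2-/-Apoe-/- libraries alone. Its level of 1.61 ± 0.956 CPM (SD, n = 4) is close to that of 3 counts in the shallowest library (1.70 CPM).

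Ccr2, the Ccl2 receptor of inflammatory monocytes, had at most 5 counts in any library. Ccr9 gave 0, 4, 0, 1 and 20 counts across the Apoe-/- livers and 34, 7, 12 and 5 across those of Mif-2-/-Apoe-/- mice, where the groups overlapped through Apoe-/- replicate 5 (log2 fold change 1.98, standard error 1.36, edgeR adjusted p = 0.514).

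Receptors of lymphocytes were high in few libraries. Ccr4, a receptor of Th2 and regulatory T cells, gave 1, 0, 77, 1 and 2 counts across the Apoe-/- livers and 0, 1, 8 and 113 across those of Mif-2-/-Apoe-/- mice, so that 1 library of each genotype carried almost the whole signal. Means were 7.38 ± 16.1 and 7.10 ± 12.5 CPM (SD, n = 5 and 4). Ccr7, which guides dendritic cells and naive T cells to lymph nodes, gave 6, 88, 20, 2 and 1 counts across the Apoe-/- livers and 1, 9, 89 and 16 across those of Mif-2-/-Apoe-/- mice (log2 fold change 0.80, standard error 1.30, edgeR adjusted p = 0.816). Cxcr5, the receptor that brings B cells to follicles, was at 8.26 CPM in Apoe-/- replicate 4 and 19.2 CPM in Mif-2-/-Apoe-/- replicate 4 and at 1.10 CPM or less elsewhere. Summed levels of 8 T cell markers were 9.47 to 59.8 CPM and 44.6 to 56.9 CPM, those of 6 B cell markers 13.5 to 55.4 CPM and 7.95 to 113 CPM, and edgeR called no gene of either list. Of the T cell markers 3 had an edgeR p under 0.05 without adjustment, with log2 fold changes of -3.76 (Cd3d), 4.81 (Cd3e) and 2.87 (Cd8b1), and DESeq2 called Cd3d. Of the B cell markers none passed by either tool. Over all genes tested 6.52% pass lower and 8.99% higher at that edgeR p.

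This unevenness was about as common in the family as among other genes of low count. For 17 of the 41 members above the floor (41.5%), 1 library held more than 50% of the summed CPM over the 9 libraries. Over all 20694 genes above the floor the share was 31.9%, and among the 14133 whose highest count was at most 200 it was 44.1%. The library was Apoe-/- replicate 5 for 5 members, Apoe-/- replicate 3 and Mif-2-/-Apoe-/- replicate 3 for 4 each, Mif-2-/-Apoe-/- replicate 4 for 2, and Mif-2-/-Apoe-/- replicates 1 and 2 for 1 each. Over all genes above the floor, Apoe-/- replicate 5 was that library for 8.0%, Apoe-/- replicate 3 for 1.93% and Mif-2-/-Apoe-/- replicate 3 for 11.5%. Ccl1, a CCR8 ligand, had 112 of its 119 counts in Apoe-/- replicate 5, and its receptor Ccr8 had all of its 49 counts in the same library. Cxcr6, the Cxcl16 receptor, had 37 of its 40 counts there, beside 18 counts of Ccr6. Cxcr6 had no count in the 4 Mif-2-/-Apoe-/- libraries. Ccl28 had 38 counts in Mif-2-/-Apoe-/- replicate 4, Cxcr1 had 24 in replicate 3, and Ccr1l1 had 10 in replicate 2.

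**Figure D5:**
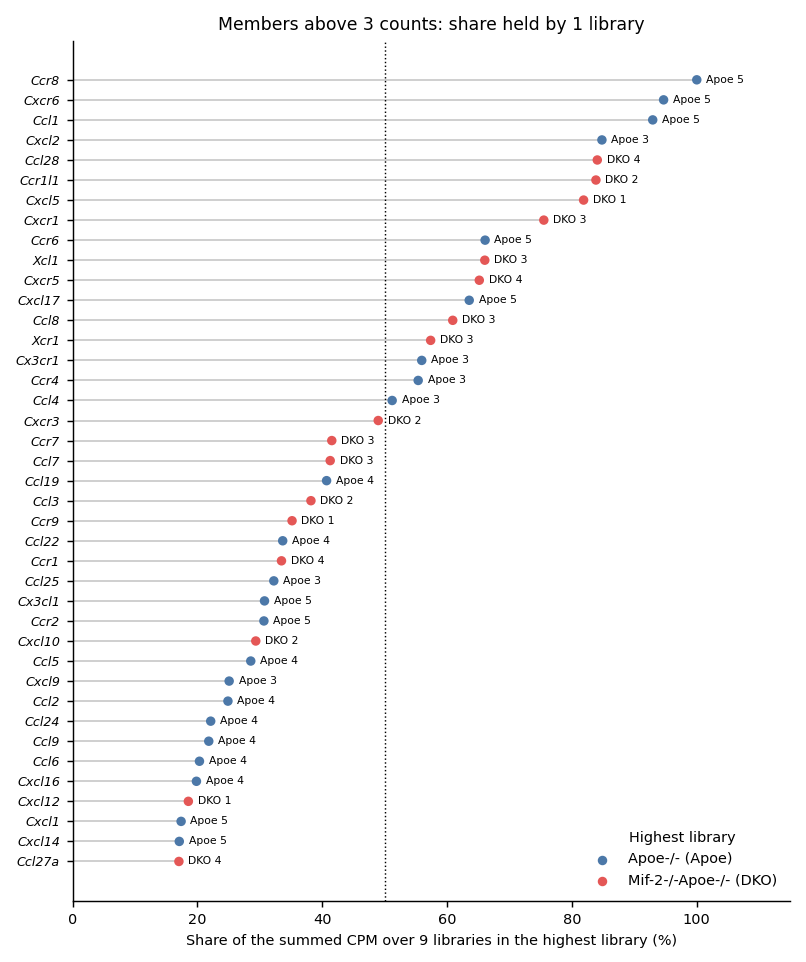
Share of the summed CPM over the 9 libraries that lay in the highest library (x axis, %) for 40 members above 3 counts in any library (y axis), with that library named beside each point. The dotted line is at 50%, which 17 members passed, and Ccr8, Cxcr6 and Ccl1 lie above 90% in Apoe-/- replicate 5.

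Many members sit in gene clusters, so position was set beside the estimates (GENCODE M21, GRCm38). The cluster at chr11:83525778-83664683 holds Ccl5, Ccl9, Ccl6, Ccl3 and Ccl4, all above the floor, with log2 fold changes of -1.21, -1.64, -2.07, 0.37 and -2.32 in that order. The CC cluster at chr11:82035571-82305690 holds Ccl2, Ccl7, Ccl11, Ccl12, Ccl8 and Ccl1, of which the 3 tested above the floor were at -0.91 (Ccl2), 0.33 (Ccl7) and 2.38 (Ccl8). The receptor cluster at chr9:123678439-124147699 holds 8 members, of which Ccr9, Xcr1 and Ccr1 had higher estimates and Ccr2 a lower one in Mif-2-/-Apoe-/- livers. Neighbours were not uniform in these clusters. In others all members tested had lower estimates, as 43.5% of all genes tested did. These were 3 of 3 in the cluster of Cxcl1 and Cxcl2 on chromosome 5, where Cxcl15 was at the floor. The others were 2 of 2 for Ccl22 and Cx3cl1 on chromosome 8 and 2 of 2 for Ccl19 and Ccl27b on chromosome 4. Ccl27b was at the floor, Ccl19 reached 4 counts at most, and Cxcl2 passed the filter through the Apoe-/- libraries alone. The estimates of Cxcl1 (-0.12) and Cx3cl1 (-0.31) turned in sign without some libraries.

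Genes that surround the chemokine system were examined as lists, and neither edgeR nor DESeq2 called a gene in any of them. Of 22 cytokines and transcription factors that induce chemokines, 19 were tested, 10 with a higher and 9 with a lower estimate. Of these 5 had an edgeR p under 0.05 without adjustment, 2 of them higher and 3 lower. Among those without overlap was Ltb, the lymphotoxin subunit, at 24.1 against 7.47 CPM (log2 fold change -1.68, edgeR adjusted p = 0.267). Il17a had no count, and the median of this list was 0.05. Of 20 receptor signalling genes, 12 were higher and 8 lower, with 2 higher ones under 0.05 without adjustment and a median of 0.26. Of 16 leukocyte adhesion genes tested, 8 were higher and 8 lower, with a median of -0.02, and none was under 0.05. Chemokine-processing enzymes and proteoglycans numbered 5 and 5, with none under 0.05 and a median of -0.17. Of 6 other chemokine-system genes tested, such as the scavenger receptors Ackr1 to Ackr3, 4 were higher and 2 lower. In that list 1 higher gene was under 0.05 without adjustment, and the median was 0.62. Beside these medians that of all genes tested was 0.17, and without adjustment 6.52% of all genes tested passed lower and 8.99% higher.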

How the data were processed

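Reads had been quality-checked (FastQC), trimmed (cutadapt) and mapped by HISAT2 (mm10 in the submitters' processing notes), and the authors deposited raw counts on gene exons under Entrez identifiers, without normalization. The libraries were Smart-seq2 libraries from 1 ng of oligo-dT-purified RNA. The counting tool, its use of strand and the treatment of PCR duplicates are not given in the sources used here. The table held 27179 genes, and every column was mapped. A repeated header (1 line) was dropped. The study's text gives 4 mice or sections per group, while the table has 5 Apoe-/- columns. RefSeq names of GRCm38.p6 matched 25275 genes, and 1904 had none. RefSeq promoter windows were given for 41 of the 56 members.

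Genotype labels defined the 2 groups. Nothing says that the libraries came from separate litters, so p-values measure the spread between these libraries. The filter asked for 1 or more counts in 3 or more libraries of a genotype, and the 10 highest genes were excluded, as the study did for its other liver data. For the remaining 16860 genes the test was that of edgeR 4.0.16 (quasi-likelihood fit, TMM scaling, Benjamini-Hochberg over all genes, R 4.3.3), and the direction is Mif-2-/-Apoe-/- over Apoe-/-. Standard errors were derived from the log2 fold change and its F statistic (change over root F). CPM are TMM-normalised per 1000000 counts of the tested genes, and permutation tests used log2(CPM + 0.5). DESeq2 1.42.0 on all genes with a count gave no adjusted p for 8446 genes. Coordinates and exon lengths are from GENCODE M21 (GRCm38), and a stretch was called shared where another gene's transcript held the same 50 bases.

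Counts in every library are given for the 20 members above the floor with a mean of at least 5 CPM in either genotype, no overlap between genotypes or an edgeR p under 0.05. Of the lists of surrounding genes, those called or without overlap were named. A receptor and a gene of these lists are counted in the totals but not reported here. The members, lists and tests were chosen with earlier results of these data known. The alternatives were other scalings (RLE, TMMwsp), no filter or filterByExpr, the highest genes kept, DESeq2, a replicate block, a pseudocount of 1 CPM, a floor of 10 counts and each library left out. The share of the 10 highest genes as a covariate was chosen after seeing the data. Simulated counts with known changes were used to test the scripts. Totals of 2318148 to 10764182 counts limit precision, and counting intervals cover counting error only. Python 3.11.15, numpy 2.4.6, pandas 2.3.3, scipy and matplotlib 3.10.9 were used for tables and figures.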

Additional observations from a re-analysis of the deposited data

Results flagged for a closer look

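Among the members given per library, both genotypes of each were checked for a library whose gap to the next was large against the range of its group (Dixon's criterion), and 8 of the 40 groups (20.0%) had such a library. Chance gives about 1 in 20 for normally distributed values, but these levels are skewed. A high library can itself bring a member to the 5 CPM that selects it. Over the 11869 genes tested with a mean of at least 5 CPM in either genotype, 15.4% of groups had such a library. Apoe-/- replicate 3, a library of 2886407 counts, was the high library in 5 of the 8. It had 36.2 CPM of Ccr4 beside 0.387 CPM in the next Apoe-/- library, 16.4 CPM of Ccl25 beside 6.05, 32.9 CPM of Ccl4 beside 10.8, 7.51 CPM of Cxcl2 beside 0.549, and 142 CPM of Cxcl12 beside 89.1. Apoe-/- replicate 5 was high for Cx3cl1 at 26.3 CPM beside 9.27 CPM and for Cxcl17 at 33.7 CPM beside 3.43 CPM. Mif-2-/-Apoe-/- replicate 4 had 25.8 CPM of Ccr4 beside 2.02 CPM in the next library of its group. The counts behind these levels were 77, 35, 70, 16, 303, 136, 174 and 113 in the order given. No cause was tested.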

How the results depend on the processing

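Under the alternatives, edgeR called no member at any setting, and DESeq2 called 2. The count of all genes called moved from 22 to 724 with DESeq2, 560 with the replicate block and 35 with the share of the 10 highest genes as a covariate. It lay between 9 and 262 with each library left out, at 11, 14, 9, 11 and 126 without Apoe-/- replicates 1 to 5 and at 262 and 13 without Mif-2-/-Apoe-/- replicates 2 and 3. Members under an unadjusted p of 0.05 numbered 4 to 8. The median log2 fold change of the members tested was -0.92 with filterByExpr and -0.11 with DESeq2, which test fewer and more members, and between -0.95 and -0.06 with each library left out.

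Of the 20 members given per library, 13 kept their direction under every alternative run. The sign turned for Cxcl12 (-0.16 with TMMwsp, -0.031 with filterByExpr, -0.064 with the highest genes kept, -0.0076 with the covariate), Ccl27a (-0.00015 with TMMwsp) and Ccr4 (3.37 with the covariate). With each library left out the ranges were -3.01 to 5.11 for Ccr4, -0.61 to 1.55 for Ccr7, -0.41 to 0.084 for Cxcl1, -0.065 to 0.44 for Ccl27a, -0.85 to 0.39 for Cx3cl1, -0.34 to 0.17 for Cxcl12 and -3.26 to 1.19 for Cxcl17. A floor of 10 counts left 35 members above it in place of 41. The causes were not tested.

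Replicate numbers are shared between the genotypes in the titles, but nothing says that they pair the mice. Deviations of same-numbered libraries correlated at 0.12, 0.0082, 0.061 and -0.012, and those of different-numbered libraries at -0.17 to 0.26. Such correlations over all genes cannot exclude a shared litter or handling, so whether the numbers pair the mice is not known. With the replicate block no member was called, and the estimates of Ccr4 (1.04), Cxcl1 (0.23), Cx3cl1 (0.15), Cxcl12 (-0.064) and Cxcl17 (0.90) turned in sign.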
